A study of Homo sapiens with 16 samples.

Results

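The 48 h comparison set 3 NORAD knockdown libraries against 3 wild-type libraries of the human colon cancer cell line HCT116, 6 of the 16 libraries of the series, chosen by the time point, that of the deepest NORAD loss, and by genotype. All 6 are polyadenylated, strand-specific RNA-sequencing libraries made from 20000 to 50000 cells each. The wild-type group is labelled wild type and the knockdown group carries CRISPR interference against NORAD, in which a catalytically dead Cas9 with a repressor domain is directed to a promoter. Doxycycline at 0.5 µg/ml in the medium switched interference on, here for 48 h. The sample descriptions list 0.5 µg/ml for wild-type and knockdown libraries alike, and no label states separately that wild-type cells received it. The promoter that drives the interference construct, the guide sequences and the number of clones are not stated in the labels. No label ties a replicate to a culture of its own, and the p-values therefore reflect how far these libraries scatter, which can be technical scatter alone. At 24 h the series has 2 libraries of each genotype and at 96 h it has 3 of each, and these served to estimate the spread and to ask where the 48 h effects differ from those of the other times. The stated purpose was to examine gene expression and alternative splicing after loss of NORAD.

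NORAD is an abundant, unspliced long noncoding RNA known for keeping chromosomes stable. In the cytoplasm it carries many copies of the motif bound by Pumilio proteins, which recruit the CCR4-NOT deadenylase to messenger RNAs and shorten their lives. In the nucleus it has been described in a complex with the RNA-binding protein RBMX, the DNA topoisomerase TOP1 and the PRP19 splicing complex, which is the complex named in the title of the series.

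NORAD lies on chromosome 20 (ENSG00000260032, chr20:36045622-36050960, minus strand, GENCODE 29 on GRCh38) as a single exon of 5339 bases. The transcript removed by the knockdown holds 15 matches to the Pumilio motif TGTA, any base, ATA, found on the transcribed strand, with 3 different 8-base sequences among them. A match is a sequence description and not evidence of binding. One site of each kind is shown because these repeats are what the RNA is best known for, 5′ to 3′ as DNA with the motif in capitals, from GENCODE 29.
Site 2, chr20:36049805-36049830: tcactactgTGTATATAgttgacaat
Site 3, chr20:36049704-36049729: atcacatttTGTAAATAcctttttgt
Site 5, chr20:36049494-36049519: tgtatatagTGTACATAaaggacaga
The 250 bases before the start of NORAD are shown from RefSeq on GRCh38.p14 (chr20:36050961-36051210, minus strand), with their single E-box CACGTG, the motif of MYC and related factors, in capitals. Where the guides bind is not stated, so this stretch is not offered as the targeted region.
NORAD upstream: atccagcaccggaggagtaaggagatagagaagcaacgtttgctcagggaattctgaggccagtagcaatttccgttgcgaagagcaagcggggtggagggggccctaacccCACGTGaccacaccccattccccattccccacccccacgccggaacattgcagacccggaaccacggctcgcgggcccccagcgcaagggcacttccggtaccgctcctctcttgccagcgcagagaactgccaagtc

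The 6 libraries held 36610474 to 44036466 estimated counts, a depth at which library scatter, not counting error, limits most genes. They did not form 2 tight groups. On the first principal component of log2 CPM (counts scaled to the size of the library), which held 44.85% of the variance, wild-type replicates 1, 2 and 3 scored 45.3, 43.4 and 18.0 and knockdown replicates 1 and 2 scored -54.2 and -65.5. Knockdown replicate 3 scored 13.1, beside the wild-type libraries on this component. On the second, with 19.84% of the variance, knockdown replicate 3 scored -59.6 and the other libraries -6.25 to 33.9. There knockdown replicate 3 stood apart from both groups. Its share of counts from transcripts annotated as retaining an intron was close to that of wild type (4.18%, against 5.73% and 5.29% in knockdown replicates 1 and 2). That difference was known beforehand and was a reason to report each knockdown library, so it is not a separate sign. Counts of genes are therefore given with and without this library, and single genes for each library.

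NORAD itself was low in all 3 knockdown libraries, knockdown replicate 3 included. Its level was 156.4, 154.8 and 162.3 CPM in wild-type replicates 1, 2 and 3 and 21.8, 18.1 and 24.8 CPM in knockdown replicates 1, 2 and 3. The groups were far apart, with knockdown at 13.6% of wild type (mean ± SD 157.8 ± 3.99 against 21.5 ± 3.34 CPM in 3 and 3 libraries; log2 fold change -2.88, SE 0.105, edgeR adjusted p = 1.27e-13). ZNF10, a zinc-finger gene whose KRAB domain is the repressor commonly fused to dead Cas9, rose from 0.0607, 0.0811 and 0.11 to 8.35, 4.73 and 16.7 CPM (log2 fold change 6.80, SE 0.711, edgeR adjusted p = 3.98e-05). Nearly all of its knockdown counts (346, 203 and 590) were assigned to the coding transcript ZNF10-205, and whether they come from the gene or from the construct was not tested. By this measure knockdown replicate 3 had the highest ZNF10 level and the highest remaining NORAD level of the 3 knockdown libraries.

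Across the transcriptome 6591 of 19836 tested genes (33.2%) passed an adjusted p of 0.05 in edgeR's quasi-likelihood test, the test behind every adjusted p of a single gene below. Of these, 2928 (14.8% of genes tested) were higher and 3663 (18.5%) lower in knockdown. Counts of listed genes below are to be read beside these shares. The large changes went mostly upwards, with 855 genes higher and 136 lower by at least 2-fold. In a count that uses no model, every knockdown library lay above every wild-type library for 3362 genes (16.9%) and below for 4027 (20.3%). Without knockdown replicate 3 the number that passed was 8869 (4133 higher, 4736 lower), and without knockdown replicate 1 or 2 it was 4845 or 5612. The split by direction depended on the scaling of libraries: higher genes made up 44.4% of those that passed with TMM scaling, 68.9% with total counts, 64.3% with upper quartiles and 50.1% with abundance-dependent scaling. Total counts and upper quartiles moved the median of all genes by 0.14 and 0.12 on the log2 scale, so changes of that size have no fixed direction here.

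**Figure D1:**
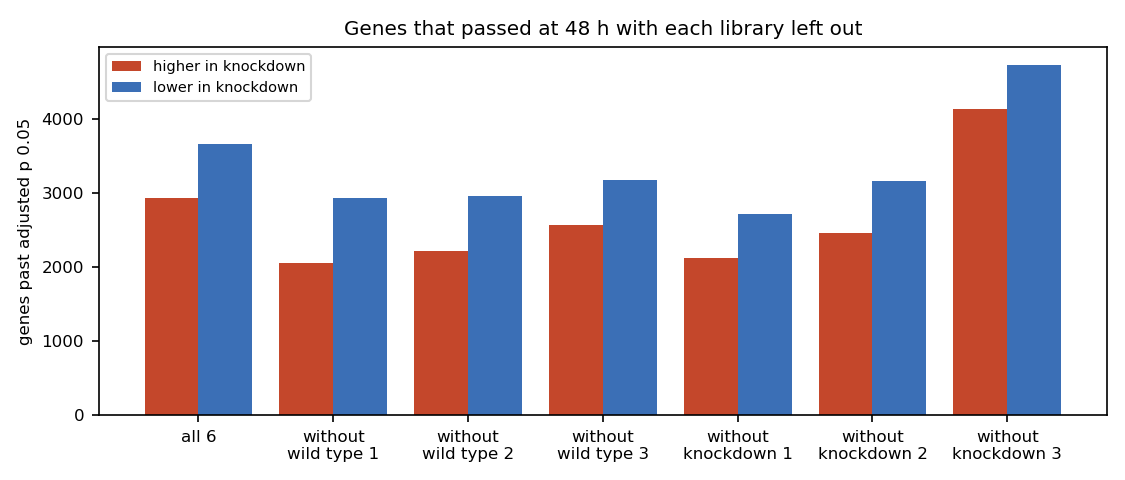
Number of genes past an adjusted p of 0.05 (y axis) in the full comparison and with each of the 6 libraries left out in turn (x axis), higher in knockdown in red and lower in blue. Leaving out knockdown replicate 3 gives the most calls, 4133 higher and 4736 lower.

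The largest changes were picked among genes that passed with a mean of at least 5 CPM and no overlap between the groups. After ZNF10 the largest rise of these was that of CEMIP (ENSG00000103888, chr15:80779343-80951776, plus strand), whose product binds hyaluronan and takes part in its breakdown. CEMIP stood at 2.85, 3.19 and 2.51 CPM in the wild-type libraries and at 31.6, 27.0 and 42.6 CPM in the knockdown libraries (log2 fold change 3.56, SE 0.16, edgeR adjusted p = 8.97e-11). Next among coding genes came ITGAX, an integrin subunit best known from leukocytes, from 4.49, 4.60 and 4.28 to 25.4, 21.7 and 17.6 CPM (log2 fold change 2.28, SE 0.126, edgeR adjusted p = 8.71e-11). SPTSSB, a small subunit of serine palmitoyltransferase, the first enzyme of sphingolipid synthesis, went from 3.67, 3.87 and 2.62 to 13.5, 15.3 and 15.8 CPM (log2 fold change 2.13). By that choice every knockdown library, replicate 3 included, lay above every wild-type library in CEMIP, ITGAX and SPTSSB.

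CENPT, a kinetochore gene, was the most abundant of the 12 largest rises, from 87.4, 89.6 and 78.4 to 304.0, 289.7 and 240.5 CPM (log2 fold change 1.71, SE 0.0945). TRIML2, of the tripartite motif family, rose by 1.82, the zinc-finger gene ZNF608 by 1.85 and IRF7, a transcription factor of the interferon response, by 1.63 on the log2 scale (SE 0.103, 0.143 and 0.105). CCNG2, an unusual cyclin associated with cells that leave the cycle, rose from 4.64, 4.03 and 5.90 to 14.4, 12.5 and 13.7 CPM (log2 fold change 1.48, edgeR adjusted p = 1.74e-07). That none of these 5 genes overlapped between the groups follows from how they were picked.

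A pair of the large rises were noncoding genes whose libraries spread widely. The antisense gene AC006064.4 (ENSG00000269968, chr12:6537794-6538370, minus strand) ranged from 12.9 to 60.9 CPM within wild type and from 70.9 to 335.9 CPM within knockdown (log2 fold change 2.43, SE 0.615, edgeR adjusted p = 0.0121), and it did not pass when only the 48 h libraries were fitted (edgeR adjusted p = 0.132). It lies inside the span of GAPDH on the other strand, and how strand was used in counting is not stated, so reads of the pair cannot be told apart. GAPDH itself was at 4742, 4777 and 4840.0 CPM in wild type and 3635, 3681 and 4675 CPM in knockdown and did not pass (log2 fold change -0.26, edgeR adjusted p = 0.0558). The lincRNA AC138035.1 on chromosome 5 ranged from 7.77 to 9.92 CPM in wild type and from 14.6 to 36.5 CPM in knockdown (log2 fold change 1.45, edgeR adjusted p = 0.00397) and did not pass with the 48 h libraries alone (0.0509) or with a replicate block (0.127).

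The largest falls after NORAD included epithelial and signalling genes. KRT6A, a keratin of stratified and stressed epithelium, fell from 16.97, 15.9 and 15.6 to 2.41, 2.81 and 3.47 CPM (log2 fold change -2.48, SE 0.209, edgeR adjusted p = 3.68e-08). CYP24A1, the enzyme that inactivates vitamin D and lies on the same chromosome as NORAD (ENSG00000019186, chr20:54153449-54173973, minus strand), fell from 57.8, 59.4 and 53.5 to 10.5, 9.45 and 12.3 CPM (log2 fold change -2.40, SE 0.0883, edgeR adjusted p = 1.27e-13). KCNK1, which encodes a potassium channel, dropped from 24.0, 21.96 and 21.5 to 4.65, 4.77 and 5.80 CPM and the centriole appendage gene CEP83 from 11.7, 9.82 and 11.3 to 2.72, 2.90 and 1.94 CPM (log2 fold changes -2.15 and -2.10, SE 0.107 and 0.143). Knockdown was at 17.9%, 18.9%, 22.5% and 23.1% of wild type in these 4 genes, which were picked among genes without overlap.

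The proto-oncogene MYC was the most abundant gene among the 12 largest falls. It stood at 537.3, 544.2 and 494.6 CPM in wild type and at 139.4, 129.2 and 204.0 CPM in knockdown (log2 fold change -1.74, SE 0.119, edgeR adjusted p = 1.37e-08), with knockdown replicate 3 the highest of its group and still far below wild type. Other falls were those of the carboxypeptidase gene CPA4 (-2.00), the keratin gene KRT13 (-1.92), FKBP10, a prolyl isomerase of the endoplasmic reticulum (-1.85), the Wnt ligand gene WNT16 (-1.81) and the ephrin receptor gene EPHB2 (-1.78 on the log2 scale). KIDINS220, a membrane scaffold of neurotrophin signalling, fell with a wide spread, from 10.5, 9.09 and 16.8 to 1.61, 3.48 and 2.42 CPM (log2 fold change -2.27, SE 0.563, edgeR adjusted p = 0.0106).

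**Figure D2:**
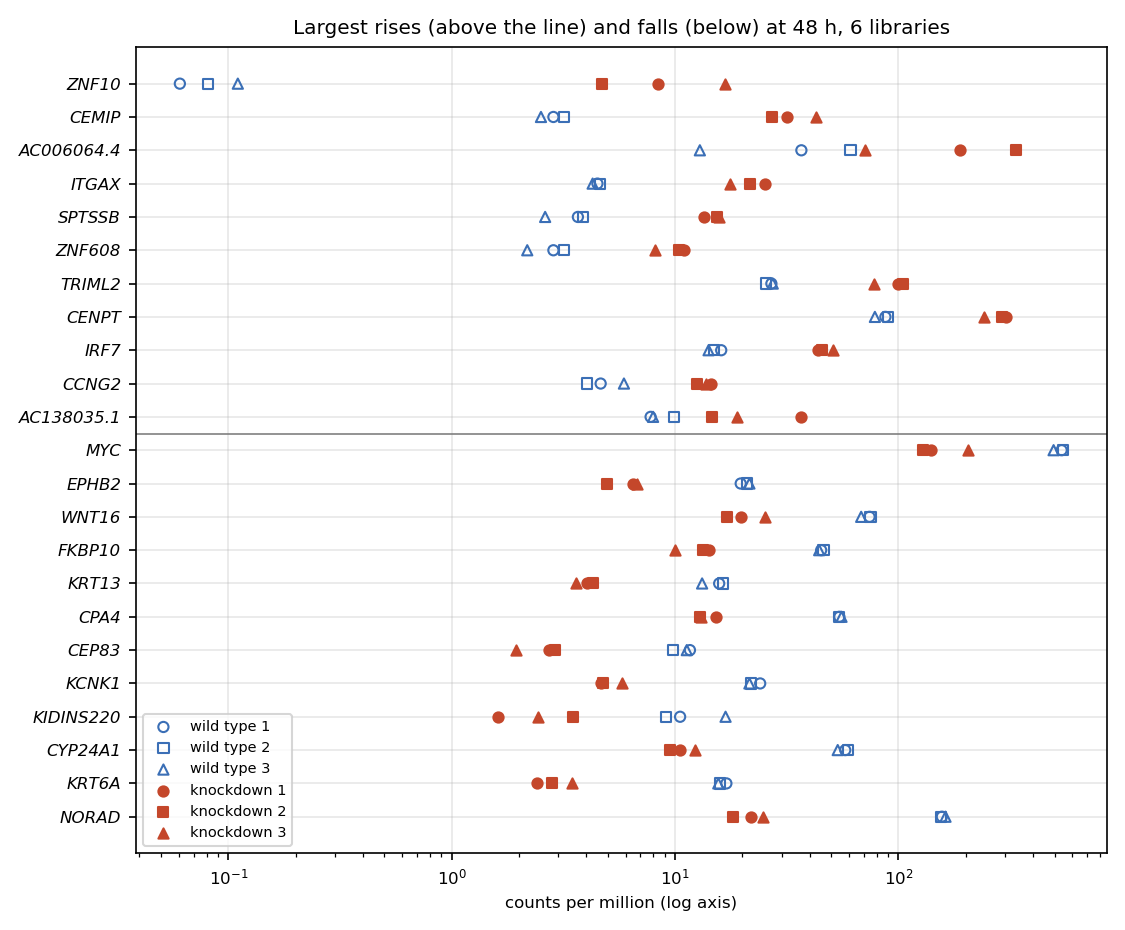
Level of 11 of the 12 genes with the largest rises (above the line) and the 12 with the largest falls (below) at 48 h, in CPM on a log axis, each library a point (open blue, wild type; filled red, knockdown; shape, replicate number). Only genes with all 3 knockdown libraries on one side of all 3 wild-type libraries could be picked. NORAD falls to 13.6% of wild type.

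Genes that build ribosomes were lower as a group. Of 30 tested genes for ribosome biogenesis and the nucleolus, 30 fell and 0 rose, with a median log2 fold change of -0.71 against 0.06 over all genes tested. This count was 29 to 30 over 4 other scalings and 29 to 30 with any 1 library left out, and the medians of knockdown replicates 1, 2 and 3 against mean wild type were -0.83, -0.76 and -0.63. At 24 h, where NORAD was not lower, 29 of these genes fell, with a median of -0.62. NCL, which encodes nucleolin, one of the most abundant nucleolar proteins, fell from 1283, 1248 and 1221 to 636.0, 605.9 and 736.8 CPM (log2 fold change -0.92, SE 0.0789, edgeR adjusted p = 3.90e-08). RRS1, needed to assemble the large subunit, fell from 104.8, 104.1 and 94.7 to 47.9, 44.5 and 56.7 CPM. GNL3, the nucleolar GTPase nucleostemin, fell from 228.4, 220.2 and 229.2 to 122.5, 134.8 and 135.7 CPM and the nucleolar regulator LYAR from 139.5, 129.9 and 139.1 to 74.5, 83.2 and 70.3 CPM (log2 fold changes -1.03, -0.79 and -0.84). None of these 4 genes, the list members of lowest p, overlapped between the groups, which their choice made likely. Of the 30 genes tested, 29 had every knockdown library below every wild-type library, beside 20.3% of all genes.

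Many genes of ribosome biogenesis are known targets of MYC, so their start regions were searched for the E-box CACGTG, which reads the same on both strands, in windows of 300 bases (250 before and 50 from the start on) from RefSeq. Of the 25 list members with a window, all of which had fallen, 14 (56.0%) held it, against 11.8% of 12727 tested genes and 8.78% of 27305 genes with a window. It was in 3 of 34 mitochondrial ribosomal protein genes (8.82%) and 5 of 39 DNA replication genes (12.8%), which also fell for the most part. These shares are descriptions, without a test. Since every biogenesis gene with a window fell, its share cannot be set against members that did not fall. A role of MYC in the falls was not tested. Sites of 3 of the biogenesis genes are shown, 5′ to 3′ on the strand of the gene with the E-box in capitals (GRCh38.p14).
GNL3, chr3:52686028-52686053: cttcagttcaCACGTGgcgccagcgg
LYAR, chr4:4290070-4290095: gcggcgagtcCACGTGctccccgcgg
DDX21, chr10:68956606-68956631: ccgggtgtccCACGTGgtccccggcg

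Other parts of the protein-making machinery were lower too, by less. Of 38 mitochondrial ribosomal protein genes, 35 fell and 0 rose (median -0.47), a count of 27 to 35 over the other scalings. MRPL3 fell from 132.0, 121.3 and 133.4 to 67.6, 75.0 and 81.0 CPM and MRPL12 from 271.0, 266.5 and 265.6 to 151.5, 182.1 and 162.8 CPM, both subunits of the large mitochondrial ribosomal particle (log2 fold changes -0.79 and -0.69). Of 54 cytosolic ribosomal protein genes 40 fell and 0 rose (median -0.27), RPL22 from 428.0, 423.8 and 470.1 to 314.6, 347.9 and 315.6 CPM. That result depended on scaling, since 46 fell with RLE, 16 with total counts, 15 with upper quartiles and 0 with abundance-dependent scaling, where the median was -0.01. With the last of these RPL22 had an edgeR adjusted p of 0.0532. Without knockdown replicate 1, 23 fell. At 24 h 36 of the 38 mitochondrial and 52 of the 54 cytosolic genes fell (medians -0.49 and -0.45).

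Aminoacyl-tRNA synthetases, which charge tRNAs, fell in 14 of 20 cases, with 0 rising (6 to 14 over other scalings, 7 without knockdown replicate 1 and 9 without knockdown replicate 2, wild-type replicate 1 or wild-type replicate 2). KARS and NARS were among those that fell (log2 fold changes -0.59 and -0.49). Of 11 noncoding hosts of small nucleolar RNAs 8 fell, among them SNHG15 (-0.66) and SNHG7 (-0.61), and 0 rose (5 to 8 fell over other scalings and 5 without knockdown replicate 3 or wild-type replicate 2). Chaperone and heat shock genes fell in 22 of 27 cases and rose in 0 (16 to 22 fell over other scalings). The mitochondrial chaperonin pair led them: HSPD1 went from 1155, 1122 and 1119 to 614.7, 605.7 and 736.0 CPM and HSPE1 from 569.8, 564.8 and 555.9 to 334.6, 386.1 and 367.5 CPM (-0.80 and -0.64). Proteasome subunit genes fell in 21 of 30 cases with a median of -0.26, but in 5 with abundance-dependent scaling, 8 with total counts, 13 with upper quartiles and 12 without knockdown replicate 1.

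**Figure D3:**
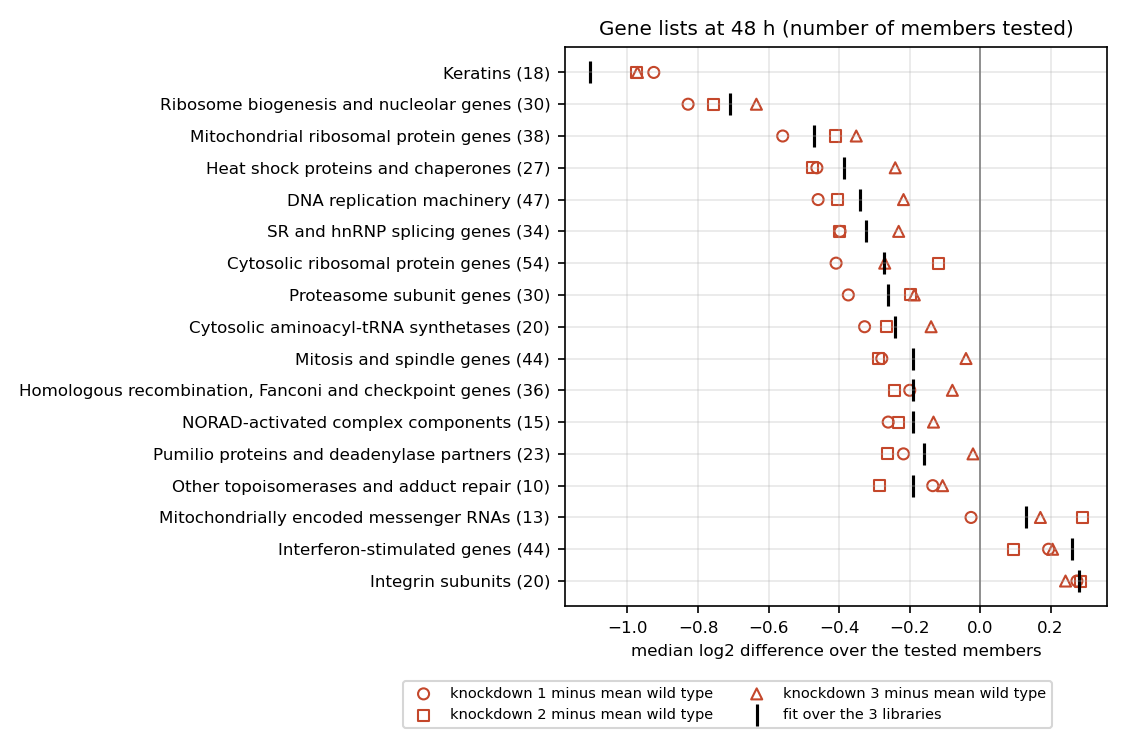
Median log2 difference between knockdown and wild type at 48 h over the tested members of 17 gene lists (number tested in brackets), for each knockdown library against the mean of the 3 wild-type libraries (open symbols) and in the fit over all 3 (black bar). Keratins (-1.11 in the fit) and ribosome biogenesis genes (-0.71) lie lowest, and for most lists knockdown replicate 3 lies nearest to 0.

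DNA replication genes fell in 34 of 47 cases, with 0 rising and a median of -0.34 (24 to 34 fell over other scalings and 39 without knockdown replicate 3). PCNA, the sliding clamp of replication, fell from 478.2, 457.7 and 447.5 to 263.2, 290.1 and 336.8 CPM and the helicase gene MCM6 from 145.3, 141.0 and 146.6 to 90.3, 89.4 and 106.8 CPM (-0.64 and -0.60, SE 0.081 and 0.0803). The loading factor gene MCM10 fell too (log2 fold change -0.66). In each of these, picked for a low p, the highest knockdown library was replicate 3, and it lay below all wild-type libraries. Of the 47 genes 35 had every knockdown library below every wild-type library.

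Mitosis and spindle genes were less uniform. Of 44 tested, 16 fell (36.4%, against 18.5% of all genes), 2 rose and 26 did not pass (median -0.19). Those that fell included CCNB1, the cyclin of mitotic entry, from 280.9, 259.5 and 281.8 to 187.3, 201.0 and 227.8 CPM and the spindle checkpoint gene MAD2L1 from 91.3, 85.9 and 86.1 to 52.6, 57.1 and 69.0 CPM. The number falling was 25 without knockdown replicate 3, 10 without replicate 1 or 2, 7 with abundance-dependent scaling and 8 with total counts, and 5 rose with either of these scalings. Recombination, Fanconi and checkpoint genes fell in 10 of 36 cases (27.8%) and rose in 2, with falls of EXO1, an exonuclease of DNA repair, and CHEK1, the checkpoint kinase (log2 fold changes -0.57 and -0.44). Of this list 5 fell with total counts, 6 with upper quartiles and 6 without wild-type replicate 1. Cohesin and condensin genes fell in 7 (30.4%) and rose in 1 of 23 cases, a balance that changed sides with total counts (1 to 5 rose and 2 to 7 fell over the other scalings) and stood at 3 rising and 11 falling without knockdown replicate 3. Without any 1 of the other 5 libraries 3 fell.

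HCT116 cells carry working p53. Of 30 direct p53 targets tested, 4 rose (13.3%, against 14.8% of all genes), 8 fell (26.7%, against 18.5%) and 18 did not pass. TP53I3, a p53-induced oxidoreductase gene, rose from 13.2, 12.3 and 12.5 to 19.5, 21.8 and 20.1 CPM, while the apoptosis inhibitor gene TRIAP1 fell from 51.3, 50.2 and 52.6 to 26.1, 32.8 and 30.2 CPM and the kinase gene PLK2 from 64.0, 68.8 and 63.6 to 35.6, 33.2 and 47.6 CPM. Over other scalings 4 to 7 rose and 5 to 8 fell, and 13 fell without knockdown replicate 3. The list median was -0.10 with TMM scaling and above 0 with total counts (0.04) and upper quartiles (0.02).

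Keratins showed the lowest list median of the lists examined. Of 18 tested, 14 fell, 0 rose and 4 did not pass (median -1.11). The number falling was 13 to 14 over other scalings and 12 to 14 with 1 library left out. That median drew on keratins at low levels. With genes of a mean of at least 1 CPM, 11 keratins were tested and 11 fell. Their median was -0.67, close to the -0.65 of ribosome biogenesis genes under the same filter. Among the abundant keratins of simple epithelium KRT8 went from 2861, 2834 and 2784 to 1677, 1755 and 2006 CPM and KRT19 from 1993, 2017 and 1949 to 1075, 1212 and 1319 CPM (-0.64 and -0.72), beside -2.48 for KRT6A and -1.92 for KRT13. KRT20, a keratin of the mature gut lining, fell from 7.34, 5.84 and 7.502 to 1.88, 1.75 and 2.62 CPM (log2 fold change -1.73, SE 0.149, edgeR adjusted p = 4.47e-08). KRT8 and KRT19 are also among the markers of this line, whose summed level over 10 markers was 7170 to 7512 CPM in wild type and 4589 to 5545 CPM in knockdown. In bulk libraries fewer cells of a kind and less RNA per cell cannot be told apart.

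A part of the intestinal lineage genes fell as well. Of 17 intestinal lineage genes tested 5 fell (29.4%, against 18.5% of all genes) and 0 rose, among them ELF3 from 52.4, 51.7 and 50.8 to 26.5, 27.96 and 27.6 CPM, SOX9 from 54.5, 57.3 and 54.1 to 27.2, 21.0 and 35.4 CPM and CDX2 from 29.9, 29.9 and 26.6 to 17.8, 19.2 and 23.7 CPM (-0.92, -0.99 and -0.51). These 3 genes specify epithelial and intestinal identity. Without knockdown replicate 3, 6 fell and 2 rose. The cell-surface marker EPCAM fell from 313.5, 301.3 and 294.8 to 192.7, 203.3 and 253.7 CPM, while LAMB3, a chain of the basement membrane protein laminin, rose from 19.2, 19.8 and 18.3 to 27.9, 27.6 and 33.0 CPM.

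Among 21 tested beta-catenin targets 9 fell and 4 rose, MYC and EPHB2 among the falls and CEMIP among the rises. CD44, the main hyaluronan receptor, fell from 390.2, 389.4 and 399.9 to 193.6, 192.3 and 242.5 CPM (log2 fold change -0.91, SE 0.0804, edgeR adjusted p = 6.45e-08). Of 10 tested genes of hyaluronan metabolism 4 fell and 2 rose (2 fell with total counts and 2 without knockdown replicate 1). HAS3, a hyaluronan synthase, fell from 555.8, 540.2 and 520.9 to 218.5, 203.0 and 263.6 CPM (log2 fold change -1.24, SE 0.0864, edgeR adjusted p = 2.91e-09), and the members that rose were CEMIP and its relative CEMIP2. CEMIP2 went from 15.6, 14.2 and 14.3 to 19.9, 16.5 and 25.9 CPM (log2 fold change 0.49, edgeR adjusted p = 0.00311).

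Of 26 ERK pathway feedback and target genes 8 fell (30.8%, against 18.5% of all genes) and 3 rose (11.5%, against 14.8%). Over other scalings 2 to 8 rose and 7 to 8 fell, and 1 rose without wild-type replicate 3. CCND1, the cyclin that carries growth signals into the cell cycle, fell from 615.5, 608.2 and 607.5 to 364.6, 365.8 and 437.0 CPM, HMGA2, a chromatin protein gene, from 451.0, 455.3 and 460.9 to 240.3, 224.0 and 290.3 CPM, and the cytokine gene LIF from 24.7, 26.6 and 24.3 to 16.3, 12.8 and 14.1 CPM (-0.65, -0.86 and -0.80). The immediate early EGR genes went the other way. EGR1 rose from 109.4, 125.4 and 109.8 to 248.6, 223.4 and 309.4 CPM (log2 fold change 1.18, SE 0.0973, edgeR adjusted p = 2.47e-08) and its relative EGR3 from 3.46, 3.81 and 2.70 to 9.46, 6.29 and 10.9 CPM (log2 fold change 1.41), and knockdown replicate 3 was the highest library for both. Over the 24 immediate early genes tested 6 rose (25.0%) and 4 fell (16.7%), with 11 rising under total counts and 10 under abundance-dependent scaling.

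Interferon-stimulated genes rose in part. Of 44 tested 15 rose (34.1%, against 14.8% of all genes), 3 fell (6.82%, against 18.5%) and 26 did not pass (median 0.26). Without knockdown replicate 3, 15 rose and 7 fell, with a median of 0.14, and with the 48 h libraries alone 8 rose. At 24 h, where NORAD was not lower, 35 of the 44 rose (median 0.98), and 20 had a lower effect at 48 h than at 24 h. IRF7 stood at 16.1, 14.9 and 14.1 CPM in wild type and 43.5, 45.5 and 50.9 CPM in knockdown, and IFI6, a mitochondrial membrane protein gene induced by interferon, at 14.1, 13.7 and 14.5 and 27.6, 34.3 and 38.2 CPM (log2 fold change 1.24, SE 0.101, edgeR adjusted p = 1.94e-08). STAT2, a part of the interferon-activated transcription complex, rose from 36.8, 39.1 and 37.9 to 75.6, 61.1 and 60.05 CPM and the exonuclease gene ISG20 from 6.59, 6.44 and 5.93 to 13.0, 13.5 and 11.4 CPM. Of 19 genes of MHC class I antigen presentation 7 rose (36.8%) and 1 fell (5.26%). Without knockdown replicate 3, 7 rose and 4 fell, and 4 rose without wild-type replicate 1. The immunoproteasome gene PSMB10 was the 1 that fell in the full comparison, from 46.2, 51.6 and 46.9 to 24.0, 31.5 and 25.4 CPM.

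The interferon-stimulated response element, searched as TTTC, any 2 bases and TTTC again on both strands, was in the start window of 23 of the 34 interferon genes that had one (67.6%), against 3.94% of tested genes. It was in 9 of the 12 that rose (75.0%), in 14 of the 19 that did not pass (73.7%) and in 0 of the 3 that fell. It was about as common among members that did not pass as among those that rose, with no test made. The 250 bases before the start of IFI6 are shown (RefSeq on GRCh38.p14, chr1:27672193-27672442, minus strand), since it rose at this and both other times, with its 3 elements in capitals as they read on this strand.
IFI6 upstream: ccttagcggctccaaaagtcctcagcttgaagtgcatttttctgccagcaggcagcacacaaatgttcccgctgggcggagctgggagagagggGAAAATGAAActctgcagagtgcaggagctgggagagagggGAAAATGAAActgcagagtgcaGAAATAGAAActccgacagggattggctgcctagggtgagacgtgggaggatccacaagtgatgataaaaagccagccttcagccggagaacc

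Of the 15 components listed for the NORAD-associated complex 7 fell, 0 rose and 8 did not pass, beside 18.5% of all genes that fell. RBMX, the RNA-binding protein that joins NORAD to the complex, fell from 252.7, 239.0 and 240.0 to 155.6, 145.4 and 186.7 CPM (log2 fold change -0.59, SE 0.0802, edgeR adjusted p = 1.23e-05), and PRPF19, the ubiquitin ligase at the core of the PRP19 complex, from 311.1, 312.9 and 282.1 to 199.0, 204.4 and 251.2 CPM (log2 fold change -0.47, SE 0.0798, edgeR adjusted p = 1.30e-04). These 2 passed under each scaling and without any 1 library. The other 5, ISY1 (-0.27), PLRG1 (-0.29), BCAS2 (-0.22), CTNNBL1 (-0.19) and PPIE (-0.19), all splicing factors, had smaller falls and none of them passed with total counts, with which 2 components fell and 1 rose. Without knockdown replicate 1, wild-type replicate 1 or wild-type replicate 2 the number that fell was 3, 3 and 4. Leaving out 1 library gave adjusted p-values of up to 0.0762 for PLRG1, 0.153 for BCAS2, 0.16 for CTNNBL1 and 0.23 for PPIE in edgeR. TOP1 did not pass, at 308.9, 304.1 and 326.0 CPM in wild type and 271.9, 299.9 and 287.4 CPM in knockdown (log2 fold change -0.13, SE 0.0682, edgeR adjusted p = 0.155), and its sign turned with total counts (0.01) and abundance-dependent scaling (0.09).

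Of 10 other topoisomerase and adduct repair genes 3 fell and 0 rose. The mitochondrial enzyme gene TOP1MT went from 69.0, 72.8 and 66.0 to 51.7, 49.6 and 52.8 CPM (log2 fold change -0.43, edgeR adjusted p = 4.57e-04). TDP1, which removes trapped topoisomerase from DNA, and TOP2B had smaller falls (-0.30 and -0.32) that did not pass without knockdown replicate 2 (edgeR adjusted p = 0.0827 and 0.0884), where 1 member fell. TDP1 also missed without wild-type replicate 2 (0.0513) and TOP2B without knockdown replicate 3 or wild-type replicate 1 or 3 (up to 0.126). With abundance-dependent scaling or total counts 2 members rose, so the list has no fixed direction.

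PUM2, one of the Pumilio proteins, did not pass, at 63.4, 61.7 and 70.9 CPM in wild type and 57.3, 55.3 and 61.0 CPM in knockdown (log2 fold change -0.18, edgeR adjusted p = 0.101). Of 23 Pumilio and deadenylase partner genes 8 fell (34.8%, against 18.5% of all genes) and 1 rose (4.35%, against 14.8%). The deadenylase gene CNOT7 fell from 112.5, 105.3 and 117.2 to 72.9, 83.8 and 86.6 CPM and CNOT9, a subunit of the same complex, from 106.7, 102.6 and 108.8 to 79.3, 74.3 and 90.5 CPM (-0.46 and -0.38). PABPC1, the poly(A)-binding protein gene, fell from 2618, 2624 and 2767 to 2022, 2132 and 2305 CPM (-0.31), a change that was -0.02 with abundance-dependent scaling (edgeR adjusted p = 0.824). CNOT11 (-0.28), KHDRBS1 (-0.28), TOB2 (-0.29), TOB1 (-0.38) and CNOT6 (-0.25) fell too, and none of them passed with total counts. TOB1 was low in knockdown replicates 1 and 2 and at the wild-type level in replicate 3 (44.7, 44.7 and 42.5 against 29.4, 27.0 and 45.1 CPM). BTG1, an antiproliferative partner of the deadenylase, was the 1 that rose (0.36), and had an edgeR adjusted p of 0.0519 without knockdown replicate 3 and 0.0534 with wild-type replicate 2 left out. The number that fell was 4 without knockdown replicate 1, 5 without knockdown replicate 2 or wild-type replicate 1 and 11 without knockdown replicate 3. Leaving out 1 library gave edgeR adjusted p-values of up to 0.0664 for KHDRBS1, 0.0903 for TOB2, 0.17 for TOB1 and 0.162 for CNOT6. Altogether 3 fell with total counts or abundance-dependent scaling.

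Of the 16 tested neighbours of NORAD on chromosome 20, 2 rose and 0 fell, which is 12.5% against 33.2% of all genes. The number that rose was 5 with total counts and 4 with upper quartiles, and 2 fell without knockdown replicate 3. DLGAP4 went from 54.2, 58.3 and 55.3 to 73.6, 67.4 and 86.7 CPM (log2 fold change 0.44, SE 0.0826, edgeR adjusted p = 3.46e-04). SOGA1 passed narrowly (7.31, 7.54 and 7.25 against 10.6, 7.12 and 9.98 CPM, edgeR adjusted p = 0.0468) and did not pass with RLE scaling (0.0549) or without any 1 library other than knockdown replicate 2 (up to 0.249, without knockdown replicate 1).

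SR and hnRNP splicing genes fell in 23 of 34 cases and rose in 1 (median -0.32), SRSF1 from 238.4, 234.2 and 235.2 to 154.8, 146.1 and 172.8 CPM and HNRNPD from 476.2, 471.9 and 448.6 to 305.6, 268.6 and 344.4 CPM (-0.58 and -0.60). SRPK1, the kinase of SR proteins, fell from 134.1, 123.5 and 133.7 to 83.6, 85.5 and 95.6 CPM. With abundance-dependent scaling 13 of the 34 fell. Without knockdown replicate 3, 28 fell and 2 rose.

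Transcripts that retain an intron took a larger share of counts in knockdown replicates 1 and 2 than in any wild-type library. The share was 4.05%, 4.26% and 4.22% in the wild-type libraries and 5.73%, 5.29% and 4.18% in knockdown replicates 1, 2 and 3. The groups overlapped in replicate 3, and the difference of 0.892 percentage points did not pass an exact permutation test (two-sided p = 0.3, smallest possible 0.1). Without the mitochondrially encoded genes in the total, knockdown replicate 3 lay just above wild type and the groups did not overlap, at 4.54%, 4.75% and 4.75% against 6.53%, 6.14% and 4.79% (exact two-sided p = 0.1). Of all matched counts antisense transcripts made up 0.374%, 0.393% and 0.398% in wild type and 0.539%, 0.565% and 0.380% in knockdown (exact two-sided p = 0.3). The share from the mitochondrial genome was higher in all 3 knockdown libraries, at 12.3%, 13.8% and 12.9% against 10.8%, 10.4% and 11.1% (exact two-sided p = 0.1, the smallest that 3 against 3 allows).

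**Figure D4:**
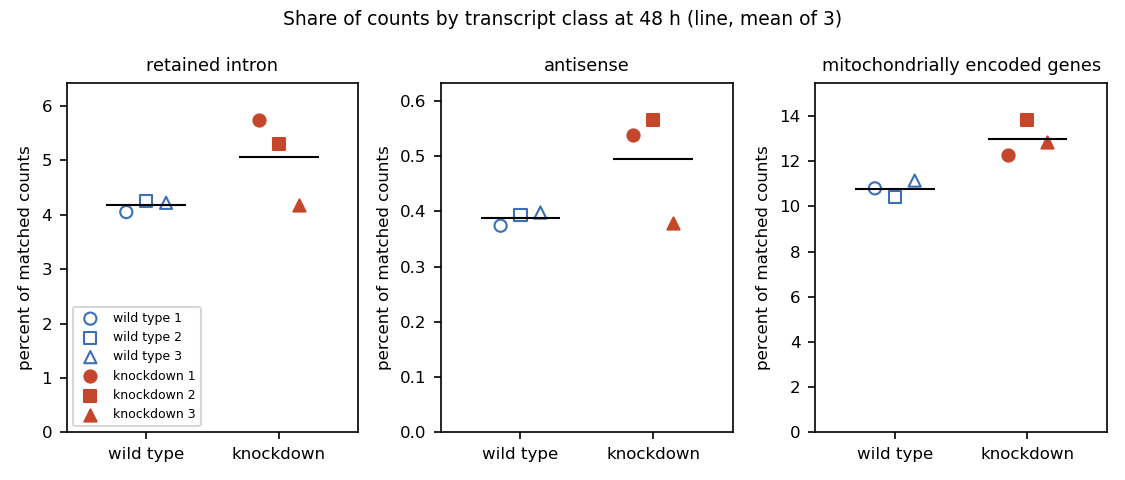
Percent of matched counts from retained-intron transcripts, antisense transcripts and mitochondrially encoded genes in each of the 6 libraries at 48 h (points; shape, replicate number; line, mean of 3; axes start at 0). Knockdown replicate 3 lies with the wild-type libraries in the first panels, at 4.18% and 0.380%, and with the other knockdown libraries in the last, at 12.9%.

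By gene, noncoding classes were higher in knockdown replicates 1 and 2. Over 2177 antisense genes the median log2 difference from mean wild type was 0.56, 0.57 and 0.00 in knockdown replicates 1, 2 and 3, and over 1963 lincRNA genes 0.56, 0.61 and 0.00. Coding genes had medians of -0.04, -0.04 and 0.00. In the fit over the 3 libraries 272 antisense genes rose (12.5%) and 63 fell (2.89%). Of the lincRNA genes 226 rose (11.5%) and 54 fell (2.75%). Shares in both directions lay below those of all genes (14.8% rose and 18.5% fell), by more for the falls. Among 15385 coding genes 2391 rose (15.5%) and 3536 fell (23.0%). MIR22HG, the host gene of a microRNA, rose in every knockdown library alike, from 10.4, 11.1 and 9.29 to 22.1, 22.01 and 21.2 CPM (log2 fold change 1.08, SE 0.124, edgeR adjusted p = 1.53e-06).

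Within genes, the ratio of retained-intron to other transcripts passed for 12 of 5525 genes (0.217%), all higher in knockdown (limma with Benjamini-Hochberg adjustment; 1388 genes had an unadjusted p under 0.05). The median log2 difference of the ratio was 0.64, 0.47 and 0.04 in knockdown replicates 1, 2 and 3. PRSS23, a serine protease gene, had 43.5%, 47.4% and 44.3% of its counts in retained-intron transcripts in wild type and 94.0%, 94.4% and 76.0% in knockdown (log2 difference 3.44, SE 0.541, limma adjusted p = 0.0344). In SLC22A18, a transporter gene, the percentages were 14.6%, 13.4% and 15.8% against 38.9%, 38.2% and 22.4%, and in VPS39, a gene of endosome fusion, 7.75%, 8.34% and 12.4% against 32.6%, 30.9% and 16.4% (limma log2 differences 1.503 and 1.760). In these genes knockdown replicate 3 lay between the wild-type libraries and the other knockdown libraries. That it lay above wild type follows from how the genes named here were picked, by lowest p among genes without overlap. Of all 5525 genes, 820 were higher and 137 lower in knockdown without overlap. TFRC, the transferrin receptor gene, had 0.684%, 0.679% and 0.826% against 2.93%, 3.07% and 1.38%, and GLOD4 5.02%, 6.13% and 4.30% against 12.8%, 11.6% and 10.2%.

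The number of genes with a changed ratio rested on single libraries. It was 1626 without knockdown replicate 3, 3 without knockdown replicate 1, 1 without knockdown replicate 2 and 3, 16 and 88 without wild-type replicates 1, 2 and 3. With only genes of at least 30 counts it was 58. Knockdown replicate 3 was known beforehand to differ in retained-intron share, so the count without it is not independent of that knowledge. The single-gene percentages describe these 6 libraries.

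Of 30 stress-response genes, from the integrated and unfolded protein pathways, 4 rose and 4 fell, 13.3% in each direction and no more than the 14.8% and 18.5% of all genes (4 and 12 without knockdown replicate 3, 11 and 2 with total counts, 9 and 3 with abundance-dependent scaling, and 2 to 4 rising with any 1 library left out). DDIT3, a stress-induced transcription factor gene, rose from 13.0, 13.2 and 11.9 to 19.4, 24.8 and 16.5 CPM, while PSAT1, an enzyme of serine synthesis, fell from 72.0, 70.1 and 72.5 to 38.9, 40.4 and 50.3 CPM (0.67 and -0.73). Amino acid transporter genes fell in 8 and rose in 3 of 16 cases (50% fell, against 18.5% of all genes, and 5 to 8 fell over other scalings), SLC7A5, the main leucine importer, from 531.7, 567.8 and 505.4 to 266.4, 246.8 and 368.5 CPM (log2 fold change -0.86, SE 0.105, edgeR adjusted p = 4.30e-06).

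Sterol and fatty acid genes fell in 12 and rose in 3 of 31 cases (38.7% and 9.68%, against 18.5% and 14.8% of all genes). SCD, the desaturase of fatty acids, fell from 324.7, 324.1 and 321.1 to 157.7, 143.4 and 223.3 CPM and SQLE, of cholesterol synthesis, from 21.1, 21.6 and 22.3 to 11.3, 11.3 and 15.5 CPM, whereas the sterol reductase gene TM7SF2 rose from 19.2, 16.4 and 17.3 to 30.4, 34.3 and 30.1 CPM. Over other scalings 2 to 8 rose and 7 to 12 fell, and without knockdown replicate 3, 16 fell and 1 rose. Glycolysis and hypoxia genes fell in 10 (34.5%) and rose in 4 (13.8%) of 29 cases, LDHA from 881.4, 845.2 and 910.2 to 520.7, 531.8 and 683.8 CPM and, in the other direction, PKM from 1624, 1645 and 1584 to 1984, 1942 and 2564 CPM. The number that fell was 3 and 5 without knockdown replicates 1 and 2, 6 and 4 without wild-type replicates 1 and 2, 4 with total counts and 3 with abundance-dependent scaling, where 6 rose.

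Nuclear-encoded respiratory chain genes fell in 17 (41.5%, against 18.5% of all genes) and rose in 1 of 41 cases, with log2 fold changes of -0.63 for SDHD and -0.54 for NDUFB10. The number that fell was 3 with abundance-dependent scaling, where 4 rose, 4 with total counts, where 5 rose, 7 without knockdown replicate 1 and 11 with wild-type replicate 3 left out. Messenger RNAs of the mitochondrial genome rose in 3 of 13 cases (23.1%, against 14.8% of all genes) and fell in 0 (3 to 10 rose over other scalings), MT-CYB, of respiratory complex III, from 8013, 7621 and 8080.1 to 9663, 11511 and 11139 CPM. Integrin genes rose in 6 and fell in 2 of 20 cases (30% rose, against 14.8% of all genes, and 6 to 10 rose over other scalings and 10 of 17 with genes of a mean of at least 1 CPM), ITGA7, a laminin receptor subunit, from 14.1, 16.1 and 15.6 to 33.1, 28.9 and 30.5 CPM (log2 fold change 1.02, SE 0.0817, edgeR adjusted p = 1.81e-08). Histone genes of the replication-dependent clusters, whose messages are largely not polyadenylated, had list medians of -0.08, 0.07 and 1.40 in knockdown replicates 1, 2 and 3, so knockdown replicate 3 stood apart in these too. Of the 15 tested 0 rose and 0 fell (edgeR; 6 had an unadjusted p under 0.05), 6 rose with total counts, 4 with upper quartiles, 3 with DESeq2 and without knockdown replicate 1, and 2 without knockdown replicate 2.

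Markers of other cells were low and moved with the groups. The summed level of 10 fibroblast markers was 35.7 CPM in each wild-type library and 64.4 to 83.0 CPM in knockdown, and COL1A1, a collagen chain, made up nearly all of it (33.6, 34.4 and 33.6 against 79.5, 72.3 and 61.4 CPM, log2 fold change 1.07, SE 0.101, edgeR adjusted p = 1.57e-07). LUM was at 0 and 8 of the 10 markers were under 1 CPM in all 6 libraries. Leukocyte markers summed to 10.4 to 13.1 CPM in wild type and 14.8 to 17.7 CPM in knockdown, with MS4A1 at 0 and CD68 the highest. Endothelial markers summed to 1.97 to 2.13 and 2.85 to 2.96 CPM.

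The 48 h effects were next set against those of the other times in the same fit. At 24 h NORAD was at 178.8 and 201.2 CPM in wild type and at 229.7 and 187.7 CPM in the libraries labelled knockdown. The target was therefore not lower there. ZNF10 did separate the labels at 24 h, at 0.264 and 0.439 CPM in wild type and 109.5 and 78.7 CPM in knockdown. In knockdown ZNF10 was at 32.6 to 39.3 CPM at 96 h, so its level was lowest at 48 h (4.73 to 16.7 CPM). At 96 h NORAD was at 181.2 to 183.7 CPM in wild type and 66.1 to 79.9 CPM in knockdown. The effect of the label differed between 48 h and 24 h for 352 of 19836 genes (1.77%) and between 48 h and 96 h for 2171 (10.9%). Of the 6591 genes that passed at 48 h, 255 differed from 24 h and 1758 from 96 h. There were 83 genes that passed at both 48 h and 96 h with opposite signs. Both counts of differences moved with the libraries: from 24 h to 48 h it was 1543 without knockdown replicate 3 and 189, 180 and 223 without wild-type replicates 1, 2 and 3, and from 48 h to 96 h it was 5252 without knockdown replicate 3, 1397 without knockdown replicate 1 and 1351 and 1386 without wild-type replicates 1 and 2.

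Several genes passed at 48 h and at neither other time. CCNG2 had log2 fold changes of -0.01 at 24 h, 1.48 at 48 h and 0.12 at 96 h, and the 48 h effect differed from each of the others (edgeR adjusted p = 4.36e-04 and 1.24e-04). KRT20 had -0.04, -1.73 and 0.02 at the 3 times (edgeR adjusted p of the differences 7.39e-04 and 1.35e-05), and SCD -0.06, -0.89 and 0.15. Unlike these genes, CCND1 and KRT19 fell at 48 h and had log2 fold changes above 0 that passed at 96 h (0.36 and 0.29, edgeR adjusted p = 0.00424 and 0.0251).

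Others were changed at all 3 times, some of them most at 48 h. SPTSSB had 0.79, 2.13 and 1.03 and CYP24A1 -0.90, -2.40 and -0.69 at 24 h, 48 h and 96 h, each differing at 48 h from both other times. MYC was lower at every time (-1.11, -1.74 and -0.51), and its 48 h effect differed from that at 96 h (edgeR adjusted p = 1.79e-04) while the difference from 24 h had an adjusted p of 0.106. CEMIP had its smallest effect at 48 h and did not pass as different from either time (4.50, 3.56 and 3.70; edgeR adjusted p = 0.0815 and 0.722).

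A last set had larger effects at 24 h, where NORAD was not lower, than at 48 h. EPHB2 had -3.83, -1.78 and -0.92, KCNK1 -3.90, -2.15 and -0.65, and FKBP10 -2.89, -1.85 and -0.29 at 24 h, 48 h and 96 h (edgeR adjusted p of 48 h against 24 h 1.45e-06, 9.69e-06 and 0.0045). CEP83 went the same way (-4.30, -2.10 and -1.64). IFI6 rose most at 24 h (2.60, then 1.24 and 0.85). EGR1 and DDIT3 were higher at 48 h and had log2 fold changes below 0 at 24 h (-0.23 and -0.77, of which that of DDIT3 passed), with adjusted p-values for the difference of 2.05e-05 and 0.00426 in edgeR. Whole lists were shifted at 24 h too. There 29 of 30 ribosome biogenesis, 40 of 47 DNA replication and 35 of 44 mitosis genes fell, beside 2465 of all 19836 genes. At 96 h 15, 41 and 44 genes of these lists fell, beside 1021 of all genes. Mitosis genes had medians of -0.46, -0.19 and -0.80 at 24 h, 48 h and 96 h, the smallest at 48 h. Of these 44 genes 38 had a higher effect at 48 h than at 96 h. Of 44 interferon genes 35 rose at 24 h and 15 at 48 h. Fewer of the 18 keratins fell at 24 h (8) than at 48 h (14).

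**Figure D5:**
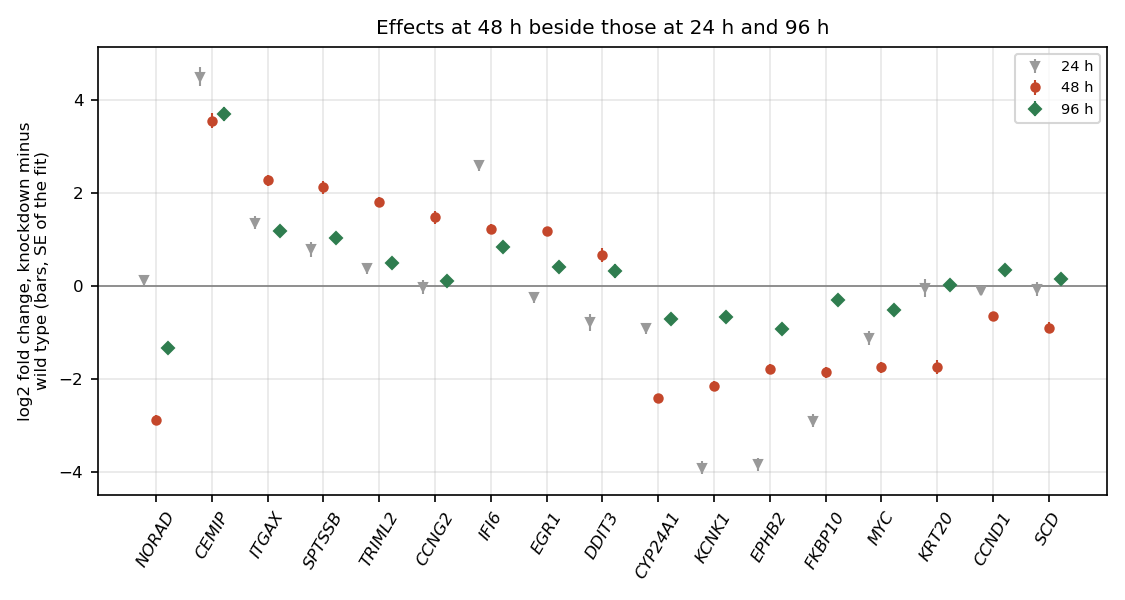
Log2 fold change of knockdown over wild type at 24 h (grey), 48 h (red) and 96 h (green) for 17 genes (y axis; bars, SE of the edgeR fit). NORAD is at 0.14 at 24 h, -2.88 at 48 h and -1.33 at 96 h, while KCNK1, EPHB2 and FKBP10 are lowest at 24 h.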

How the data were processed

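Polyadenylated RNA was sequenced from 6 libraries at 48 h, 3 wild type and 3 knockdown, within a series of 16. The deposited table holds estimated counts per transcript, written as whole numbers, and kallisto and DESeq2, with hg19 as the build, are named in the submitters' processing notes without versions. How strand was used is not given in the sources used here. Of 166096 transcripts 156584 matched GENCODE 29 and were summed to 31496 genes. The 9512 others, 2.75% to 3.40% of counts per library, were left out. All 18 values of 7 digits or more end in 0, so the largest values are rounded. Levels (CPM) are counts scaled to TMM-adjusted library size.

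The 19836 genes that pass filterByExpr entered edgeR 4.0.16 (R 4.3.3), with glmQLFit (robust) and glmQLFTest over all 16 libraries in 6 groups, with 10 residual degrees of freedom and Benjamini-Hochberg adjustment at 0.05. Ratios of retained-intron to other transcripts, with 0.5 counts added to each, were tested with limma 3.58.1 in 5525 genes. Class shares were compared by an exact permutation test. Alternatives were other scalings and filters, glmTreat, DESeq2 1.42.0, a fit of the 48 h libraries alone, a replicate block and leaving out each library.

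Named genes are NORAD, ZNF10 and the 12 largest rises and falls. The rises and falls were taken among genes that passed with a mean of at least 5 CPM and groups apart. Added were up to 4 members of lowest p in each of 46 gene lists. Also named is every member that passed of the complex, Pumilio, topoisomerase and neighbour lists. So are up to 8 retained-intron genes of lowest p with groups apart. TOP1, PUM2 and GAPDH were named outside this rule. A few genes that the rule names are not reported here. Members and lists were chosen with earlier results of these data known. The code was tested on simulated data.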

Additional observations from a re-analysis of the deposited data

Results flagged for a closer look

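For the genes below the effect of knockdown at 48 h differed from that at another time in edgeR's test of the difference itself (adjusted p under 0.05). Values are the 48 h effect minus the other effect on the log2 scale. At 24 h the target was not lower in the libraries labelled knockdown, so that side of each difference comes without a lower NORAD level. ZNF10 was higher in those libraries (109.5 and 78.7 CPM against 0.264 and 0.439 CPM in wild type at 24 h). The effect was higher at 48 h than at both 24 h and 96 h for ITGAX (by 0.91 and 1.08), SPTSSB (by 1.34 and 1.10), TRIML2 (by 1.43 and 1.33), IRF7 (by 0.85 and 1.06), CCNG2 (by 1.49 and 1.36) and EGR1 (by 1.41 and 0.77). It was lower at 48 h than at both for CYP24A1 (-1.50 and -1.71), CPA4 (-0.64 and -1.82), KRT13 (-1.23 and -1.35), WNT16 (-1.0 and -1.48), CCND1 (-0.56 and -1.01), KRT19 (-0.52 and -1.01), KRT20 (-1.69 and -1.76) and SCD (-0.82 and -1.04). It was higher than at 24 h and lower than at 96 h for KCNK1 (1.75 and -1.50), FKBP10 (1.04 and -1.56) and EPHB2 (2.05 and -0.86). Against 24 h alone a difference passed for CEP83 (2.20), DDIT3 (1.45) and IFI6 (-1.36). Against 96 h alone it passed for ZNF608 (1.04), CENPT (1.0), KIDINS220 (-2.91) and MYC (-1.23).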

How the results depend on the processing

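The number of genes that passed at 48 h, 6591 with the model over all libraries, was 4072 when only the 48 h libraries were fitted, 2634 when the change had to exceed 1.2-fold (glmTreat) and 2938 with a replicate block. It ranged from 4845 to 8869 with each library left out. No label says that replicate numbers pair the libraries. Knockdown and wild-type libraries of the same number had correlations of -0.10, -0.15 and -0.26 in their deviations from the group means. Such deviations sum to 0 within each group, so these values cannot show whether libraries are paired. The number of genes whose effect differed from 24 h (352) was 541 with DESeq2 and 180 to 1543 with each library left out. For 96 h (2171) it was 1351 to 5252. The number of genes with a changed retained-intron ratio (12) was 0 in limma with the 48 h libraries alone and 0 with the replicate block, 58 in genes with a mean of 30 counts or more, and 1 to 1626 with each library left out. In the model over all libraries 1388 genes had an unadjusted p under 0.05. Leaving out each library gave differences in class share of 0.559 to 1.34 percentage points for retained introns, 0.071 to 0.164 for antisense transcripts and 1.79 to 2.54 for mitochondrially encoded genes, and a log2 fold change of -2.99 to -2.76 for NORAD. The sign of TOP1, -0.13 in the reported fit, turned with abundance-dependent scaling (0.0942, edgeR adjusted p = 0.297) and with total counts (0.0108, edgeR adjusted p = 0.904), and that of GAPDH (-0.26) with abundance-dependent scaling (0.0433). The causes of these shifts were not tested.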

Other observations

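Other gene groups are given here by their counts, beside the 14.8% of all genes that rose and the 18.5% that fell. Of 17 Eph receptor and ephrin genes, which signal between touching cells, 5 rose (29.4%) and 3 fell (17.6%), EPHB2 among them and the ligand gene EFNB2 from 52.6, 52.8 and 53.1 to 30.5, 29.4 and 41.0 CPM (log2 fold change -0.65, SE 0.103, edgeR adjusted p = 6.02e-05). Of 14 genes of the centriole distal appendages, where CEP83 acts, 5 rose and 1 fell, which was CEP83. CEP164, another appendage gene, rose from 23.5, 29.8 and 24.9 to 41.6, 38.7 and 30.9 CPM (log2 fold change 0.51). The number that rose was 3 without knockdown replicate 1 or 2 or wild-type replicate 1 or 2. Of 16 tight junction genes 3 rose (18.8%) and 1 fell, with the claudin gene CLDN15 from 19.1, 20.3 and 18.4 to 30.6, 28.7 and 24.6 CPM and the scaffold gene CGN from 21.5, 21.4 and 21.0 to 31.2, 25.1 and 27.3 CPM (log2 fold changes 0.54 and 0.39), while 3 fell without knockdown replicate 3. Over other scalings 3 to 6 of them rose and 0 to 2 fell. Among 21 NF-kappaB targets 2 rose (9.52%) and 4 fell (19%), no more than about the shares of all genes. The inhibitor gene NFKBIA went from 23.1, 22.6 and 24.2 to 14.7, 17.1 and 19.2 CPM (log2 fold change -0.46, edgeR adjusted p = 0.00435). The balance of that list turned with total counts and with upper quartiles, with each of which 4 rose and 2 fell, and 2 fell without knockdown replicate 1 or wild-type replicate 2. Without knockdown replicate 3, 4 rose.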
